A study of Mus musculus with 2 samples.

Results

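The genes described are 10 transcripts of the white fat cell, read on an array of mouse aortic wall RNA: the hormones and secreted proteins Adipoq, Lep, Retn and Cfd, the lipid droplet proteins Plin1 and Cidec, the lipid-handling proteins Fabp4, Lpl and Pck1, and the transcription factor Pparg. They were picked by name as a functional group, with earlier results of these arrays known. The gene names in the array files picked out 14 of 41150 probes for them (Plin1 is written Plin there), and all 10 genes were among the 21366 genes or transcripts that could be measured. Fabp4 had 3 probes, Lpl and Retn had 2 each, and the other 7 genes had 1 each.

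The samples were pools of aortic RNA from wild-type C57Bl/6 mice (a widely used inbred strain) that were 16 weeks old. The arch pool held the aortic root and arch with the adjoining 2 mm of vessel, a region the labels call prone to atherosclerosis. The thoracic pool came from the next 6 mm, called resistant. Each pool held RNA of 6 mice, 3 males and 3 females, and in both the endothelium had been removed by perfusing a detergent, so the smooth muscle cell is the labelled cell type. Both pools were hybridised together to 2 Agilent 2-colour arrays, with the arch in the red dye Cy5 on array 1 and in the green dye Cy3 on array 2. Whole pieces of vessel wall were lysed, and the labels name no step that separates the outer layer and its fat.

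Fat cells store triglyceride in droplets coated by perilipins and secrete hormones that report the size and state of the store. The nuclear receptor PPAR-gamma, encoded by Pparg, drives fat cell differentiation and switches on many genes of the mature cell. Arteries are wrapped in perivascular fat, which around the mouse thoracic aorta resembles brown fat and also carries white fat genes. In bulk RNA such as this, fewer cells of a type and less RNA per cell cannot be told apart. Nor can it be told which type of fat cell, white or brown, made a transcript.

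Of the 10 genes, 9 were higher in the arch pool on each array and 1, Retn, was lower on each. Pck1, Plin1 and Adipoq were at least 1.5-fold higher on each array, the rule used here to call a gene, and none of the 10 was 1.5-fold lower. With median centring in place of loess normalisation none of the 3 kept its call and the median of the 10 genes was 0.24. Across all 21366 genes the same rule called 0.257% higher and 0.229% lower, while 28.4% of genes lay above 0 on each array and 26.5% below 0 on each. At 1.3-fold on each array Cidec and Lpl joined the other 3, which made 5 of 10 genes against 0.627% of all genes (0.524% lower), and at 2-fold none of the 10 was called, with 0.0421% of all genes higher and 0.0702% lower. The median log2 ratio of the 10 genes, arch over thoracic aorta, was 0.41 (0.45 on array 1 and 0.39 on array 2), beside 0.00 over all genes. There is 1 pool per region, so these differences have no biological replicate check and no test is possible. Values after ± are 0.5 times the gap between the arrays' log2 ratios, which measures labelling and hybridisation only. It had a median of 0.04 over the 10 genes, the same as over all genes, and reached 0.09 for Fabp4.

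**Figure D1:**
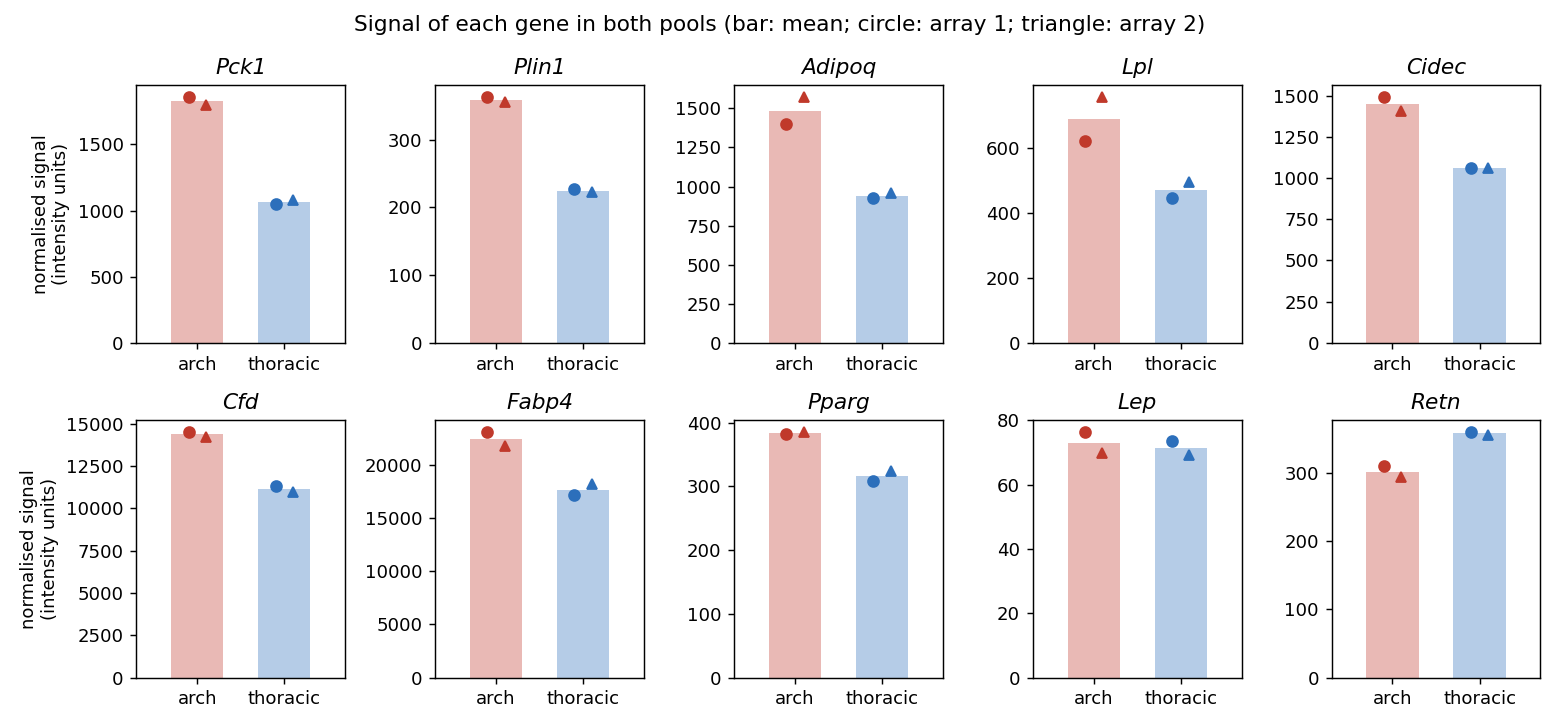
Normalised signal (vertical axis, intensity units from 0) of each of the 10 genes in the arch pool (red, left) and the thoracic pool (blue, right). Bars are means of the arrays, circles array 1 and triangles array 2. The arch points lie above the thoracic points for 8 genes, overlap for Lep and lie below for Retn.

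Signals in the text are normalised intensities of a gene's brightest probe, per dye, which carry an offset of 50 units added during background correction. They can be compared between pools for 1 probe but not between genes, since probes differ in how strongly they bind. Sums of signals over a list, given below, carry the offset for every gene and mostly reflect the brightest probes. All 14 probes were well above background in both pools on both arrays by the scanner software's criterion, and none was saturated. Some negative control spots met that criterion too. In Cy3 these were 6.7% on array 1 and 10.8% on array 2, and in Cy5 0% and 1.9%.

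The largest ratio of the 10 genes was that of Pck1, cytosolic phosphoenolpyruvate carboxykinase, which in fat cells makes the glycerol backbone for triglyceride. Pck1 gave 1856 and 1798 units in the arch pool on arrays 1 and 2, against 1048 and 1076 units in the thoracic pool. Both arch signals were above both thoracic signals. The log2 ratio was 0.78 ± 0.04, or 1.72-fold, and ranked Pck1 28th from the top of 21366 genes. Plin1, perilipin 1, coats the fat cell's droplet and gates the access of lipases to it. It gave 362 and 355 units in the arch pool against 227 and 222 units in the thoracic pool, and the arrays differed by less for Plin1 than for any other of the 10 genes. Its log2 ratio was 0.68 ± 0.00 (1.60-fold, rank 49). With an offset of 0 the ratio of Plin1 was slightly above that of Pck1 (0.82 against 0.81). The same held for the scanner software's ratios (0.86 against 0.82).

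Adipoq encodes adiponectin, a hormone that sensitises other tissues to insulin. It gave 1398 and 1571 units in the arch pool and 925 and 955 units in the thoracic pool, again with no overlap between the pools. The log2 ratio was 0.66 ± 0.06 (1.58-fold, rank 51). On array 1 alone it was 0.59, just past the limit of 0.58 that 1.5-fold sets. Cidec, which fuses small droplets into the single large droplet of white fat cells, gave 1490 and 1405 units in the arch pool against 1058 and 1060 units in the thoracic pool. The pools did not overlap, and the ratio of 0.45 ± 0.04 (1.37-fold) stayed below the limit on both arrays.

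Promoters of the 3 called genes and of Retn, the gene that went the other way, are shown so that their upstream sequence can be compared. Each is the 250 bases before the annotated start, from RefSeq on build GRCm38.p6. The Plin1 window belongs to a start inside the annotated gene, and 128 of its bases lie within that gene, whereas the other 3 windows end where the gene begins. Capitals mark matches to a short list of motifs searched on both strands. Promoters were matched for 8 of the 10 genes, all but Fabp4 and Lpl. The array files name no build.
Pck1, chr2:173152823-173153072, plus strand: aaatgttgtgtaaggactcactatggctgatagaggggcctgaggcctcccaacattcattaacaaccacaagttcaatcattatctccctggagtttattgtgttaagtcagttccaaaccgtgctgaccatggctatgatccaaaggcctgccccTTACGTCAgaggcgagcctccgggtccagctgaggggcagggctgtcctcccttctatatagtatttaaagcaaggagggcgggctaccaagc
Plin1, chr7:79732777-79733026, minus strand: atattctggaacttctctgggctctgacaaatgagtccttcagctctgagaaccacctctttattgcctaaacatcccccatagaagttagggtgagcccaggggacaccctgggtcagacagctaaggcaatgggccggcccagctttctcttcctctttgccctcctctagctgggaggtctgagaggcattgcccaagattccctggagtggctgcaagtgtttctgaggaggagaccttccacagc
Adipoq, chr16:23146286-23146535, plus strand: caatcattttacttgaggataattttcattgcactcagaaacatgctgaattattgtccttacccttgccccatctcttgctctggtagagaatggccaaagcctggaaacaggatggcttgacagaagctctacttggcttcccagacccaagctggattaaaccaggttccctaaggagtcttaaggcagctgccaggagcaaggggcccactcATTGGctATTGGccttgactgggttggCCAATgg
Retn, chr8:3655520-3655769, plus strand: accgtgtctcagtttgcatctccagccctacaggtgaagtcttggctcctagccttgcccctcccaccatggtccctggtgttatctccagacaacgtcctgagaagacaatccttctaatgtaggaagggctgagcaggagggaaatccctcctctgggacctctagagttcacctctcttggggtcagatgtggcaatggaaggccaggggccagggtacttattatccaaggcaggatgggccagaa

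The motifs were the TATA box TATAAA, the CCAAT box CCAAT, the C/EBP palindrome TTGCGCAA, the nuclear receptor hexamer AGGTCA, the direct repeat of that hexamer with 1 base between the copies, and the cAMP response element variant TTACGTCA. The window of Adipoq held CCAAT 3 times, 2 of them on the opposite strand, all within 34 bases of the start. CCAAT was found in 33.8% of 32851 mouse promoter windows of the same length. Pck1 held TTACGTCA from 93 to 86 bases before its start, which 0.447% of all windows held, and Lep held TTGCGCAA from 55 to 48 bases before its start, which 0.164% held. Of the 3 annotated Pparg windows, the first 2 held the hexamer AGGTCA (14% of all windows), 2 held CCAAT and 1 held TATAAA (12.4%). All 3 Pparg windows, and the second Cidec window, lie wholly within the annotated gene. The windows of Plin1, Retn, Cfd and Cidec held none of the 6 motifs, and no window of the 10 genes held the direct repeat (0.0335% of all windows). A match is a description of the letters and not a site, and where none is given the letters are only missing from that window.

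Lpl, lipoprotein lipase, releases fatty acids from circulating lipoproteins and is made by fat cells and by muscle. Its brightest probe gave 623 and 756 units in the arch pool against 447 and 496 units in the thoracic pool, with no overlap. The log2 ratio was 0.54 ± 0.07 (1.46-fold, rank 85), past the limit on array 2 (0.61) and short of it on array 1 (0.48). The other Lpl probe gave the same size of ratio with wider spread between the arrays, 0.58 ± 0.19. Fabp4, the fatty acid carrier of fat cells that is also made by macrophages and small-vessel endothelium, had by its brightest probe 23103 and 21742 units in the arch pool against 17149 and 18222 units in the thoracic pool. Its log2 ratio was 0.34 ± 0.09 (1.27-fold), a second bright probe gave 0.33 ± 0.11, and the dimmest gave 0.17 ± 0.05. The 3 Fabp4 probes thus shared the direction but not the size.

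Cfd, complement factor D or adipsin, a serine protease that fat cells secrete, gave 14513 and 14218 units in the arch pool against 11311 and 10969 units in the thoracic pool. The ratio of 0.37 ± 0.01 (1.29-fold) was nearly equal on the arrays. Pparg gave 382 and 385 units in the arch pool and 308 and 324 units in the thoracic pool, a log2 ratio of 0.28 ± 0.03 (1.21-fold, rank 404). The arch signals of both genes lay above the thoracic signals on each array, by less than the 1.3-fold limit for each gene. The files name 1 Pparg transcript, NM_011146, for its probe, and the isoforms were not measured apart.

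Leptin, the hormone by which fat stores act on appetite, could hardly be measured. Lep gave 76.4 and 69.8 units in the arch pool against 73.4 and 69.3 units in the thoracic pool, so that the pools overlapped. Above the local background its spot kept 28.7 (Cy5) and 38.0 units (Cy3) in the arch pool and 42.3 (Cy3) and 23.5 units (Cy5) in the thoracic pool, where negative control spots kept a median of 10.3 and 9.90 units in Cy5 and 27.1 and 25.9 units in Cy3. The log2 ratio was 0.03 ± 0.02, and the scanner software gave its own ratio an error of 0.93 on array 1 and 1.27 on array 2, against 0.16 to 0.19 for all other probes of the 10 genes. No detection limit was computed, so it is not known whether a Lep difference of the size seen for Adipoq would show at this signal.

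Resistin, encoded by Retn, is a hormone of fat cells in the mouse. Its brightest probe gave 310 and 294 units in the arch pool against 360 and 356 units in the thoracic pool, and the second probe gave 298 and 281 units in the arch pool against 355 and 354 units in the thoracic pool. For both probes every arch signal was below every thoracic signal. The log2 ratios were −0.25 ± 0.03 and −0.29 ± 0.04, or 1.19-fold and 1.23-fold lower in the arch, and placed Retn 387th from the bottom of the 21366 genes. Neither probe met the 1.5-fold rule. Macrophage markers leaned the same way: 5 of 7 measured were below 0 on each array and none was called, with Tyrobp at −0.35 ± 0.03 and Csf1r at −0.02 ± 0.02. Their summed signal was 20122 to 22234 units in the arch pool against 24967 to 26587 units in the thoracic pool. Most of that sum was the single gene Lyz2, with 18256 to 20360 units in the arch pool against 22858 to 24475 units in the thoracic pool. The part of macrophages in the Retn result was not tested.

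**Figure D2:**
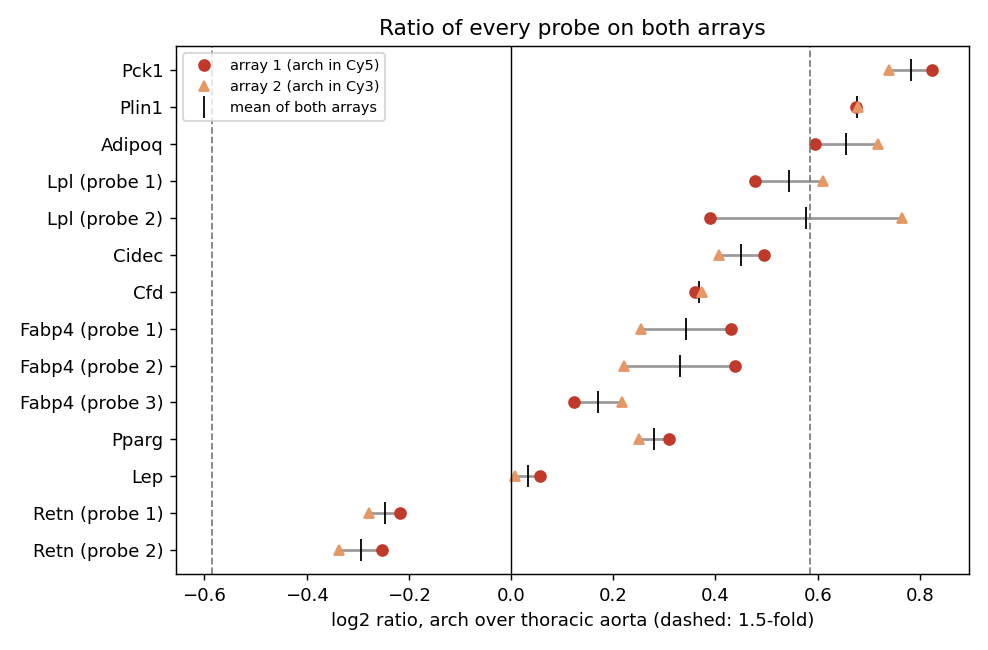
Log2 ratio of arch over thoracic aorta (horizontal axis) of all 14 probes, with array 1 as circles, array 2 as triangles and the mean as a black tick. Dashed lines mark 1.5-fold. Both arrays put every probe on the same side of 0, and only Pck1, Plin1 and Adipoq have both arrays beyond the upper line.

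**Figure D3:**
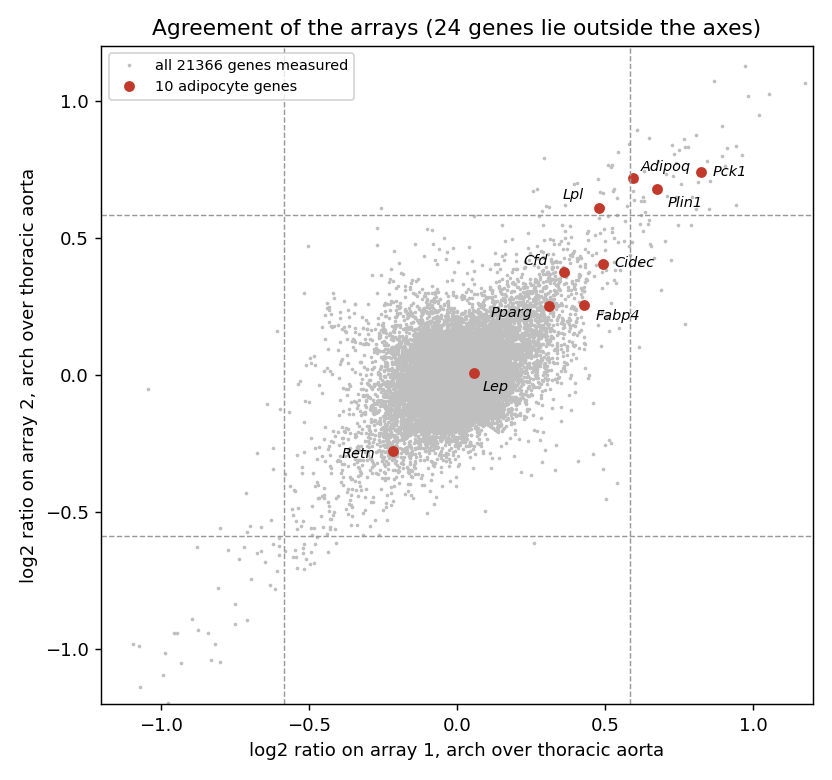
Log2 ratio on array 1 (horizontal) and array 2 (vertical) of all 21366 genes (grey) and the 10 adipocyte genes (red), with dashed lines at 1.5-fold and 24 genes outside the axes. Lep lies in the main cloud, Retn at its lower left edge and the other 8 genes toward the upper right.

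No receptor of these hormones was called. Of 8 genes listed for receptors and binding partners, all measured, none was called in either direction and the median was −0.02. The adiponectin receptor gene Adipor2 had a log2 ratio of 0.19 ± 0.02, with −0.01 by a dimmer probe. Cdh13, encoding T-cadherin, which binds adiponectin, had −0.26 ± 0.08, with 0.04 by a dimmer probe. The leptin receptor gene Lepr measured 0.21 ± 0.12 and the insulin receptor gene Insr −0.07 ± 0.04. Insr was dim, at 74.7 to 82.5 units, and the scanner software's ratio for it was −0.26 ± 0.17. Of 11 other measured genes for secreted proteins of fat cells none was called, with a median of 0.15. The highest was Angptl4, an inhibitor of lipoprotein lipase, at 0.40 ± 0.08, followed by Nrg4 at 0.25 ± 0.05, and the lowest were Agt (−0.07 ± 0.02) and Sfrp5 (−0.01 ± 0.05). Agt (73.5 to 77.8 units) and Sfrp5 (80.9 to 86.7 units) were also dim. The scanner software's ratio for Agt was −0.35 ± 0.01.

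Other droplet proteins split by member. Of 11 measured, 1 was called higher and none lower, with a median of 0.02. The called gene was Cidea, a relative of Cidec that is typical of brown fat, at 0.81 ± 0.03. Among the perilipins, named here after their values were seen apart from Plin3, the ratio was 0.41 ± 0.03 for Plin3, 0.26 ± 0.03 for Plin5, 0.02 ± 0.02 for Plin4 and 0.02 ± 0.01 for Plin2, beside the 0.68 of Plin1. Plin2 coats droplets in most cell types, while Plin4 is most abundant in white fat. The lowest droplet proteins were Bscl2 (−0.0050 ± 0.11), encoding seipin, and Fitm2 (0.01 ± 0.09).

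Among the enzymes that make and break triglyceride, Dgat2 was called. Of 11 lipolysis genes none was called and the median was 0.06. Pnpla2, the lipase that takes the first fatty acid off triglyceride, measured 0.38 ± 0.03 (0.24 at its lower probe) and Adrb1, an adrenergic receptor, 0.19 ± 0.02, whereas Adrb3, the adrenergic receptor most restricted to fat cells in mice, measured −0.07 ± 0.04 and Abhd5, the activator of Pnpla2, −0.03 ± 0.02. Of 9 triglyceride synthesis genes 1 was called higher, Dgat2, an enzyme of the last step, at 0.71 ± 0.10. Its lowest probe gave 0.16 and the mean over its probes was 0.43. Gpd1 measured 0.35 ± 0.13 and 0.01 at another probe, Dgat1 0.00 ± 0.08 and Mogat2 −0.04 ± 0.03, and the list's median was 0.10. Mogat2 was dim too, at 78.8 to 82.9 units.

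Of 12 lipogenesis and glucose genes 1 was called higher, Pdk4, a kinase that restrains pyruvate oxidation, at 0.73 ± 0.00. Thrsp, a lipogenic nuclear protein, measured 0.45 ± 0.10, Me1 −0.04 ± 0.12 and Scd2 −0.16 ± 0.12, with a median of 0.12. Of 9 genes for fatty acid uptake none was called, the median was 0.05, and values ran from −0.10 ± 0.12 for Cd300lg and −0.08 ± 0.09 for the transporter Slc27a1 to 0.23 ± 0.03 for the fatty acid receptor Cd36 and the 0.40 of Angptl4. Transcription factors of fat cell differentiation and their cofactors had a median of 0.00 over 14 genes with none called. Cebpd measured 0.34 ± 0.01, Cebpa 0.20 ± 0.08 (−0.01 at another probe), Ncoa1 −0.30 ± 0.07 and Klf5, the lowest, −0.44 ± 0.03. Pparg, at 0.28, lay within the range of these factors.

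**Figure D4:**
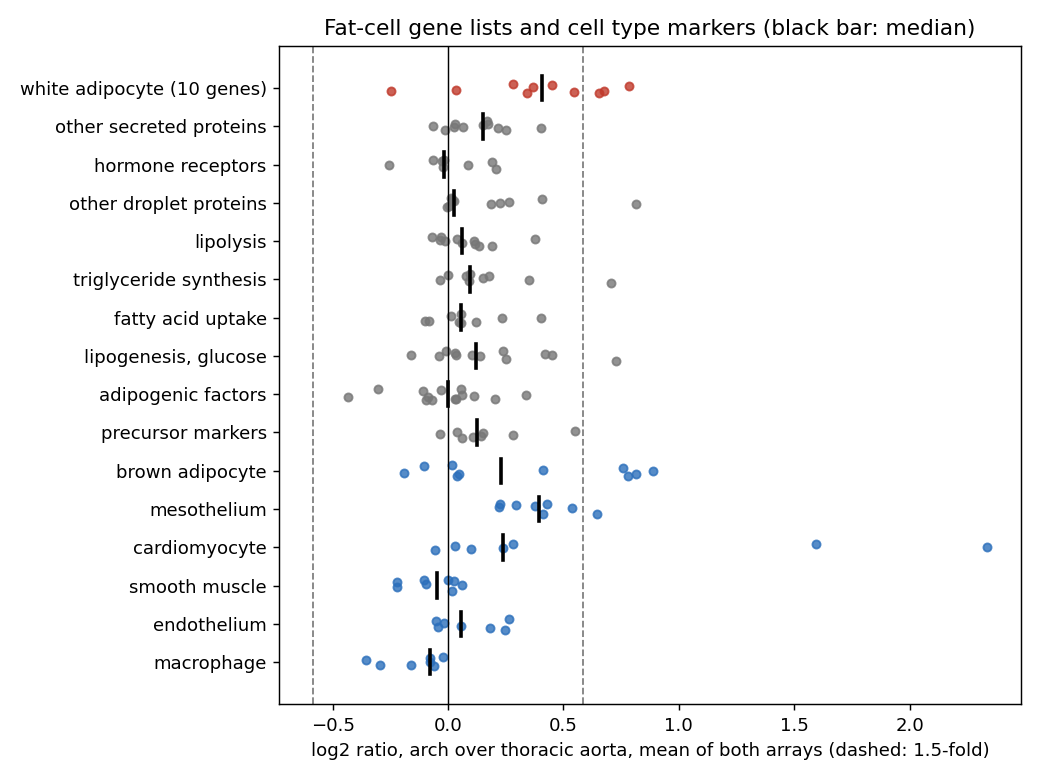
Log2 ratio of arch over thoracic aorta, mean of both arrays (horizontal axis), for each measured gene of the 10 white adipocyte genes (red), the fat-cell pathway lists (grey) and cell type markers (blue), with medians as black bars and 1.5-fold as dashed lines. The white adipocyte and mesothelium medians lie near 0.4, and the pathway medians lie between −0.02 and 0.15.

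Some markers of brown fat cells and of other cell types were also higher in the arch pool. Of 10 brown adipocyte markers 4 were called higher (Cox7a1, Cidea, Cox8b and Dio2), 6 were above 0 on each array and the median was 0.23. Their summed signal, mostly that of Cidea, Cox8b and Ucp1, was 11651 to 12054 units in the arch pool against 7656 to 7969 units in the thoracic pool. None of the 10 markers was below background. Ucp1, the uncoupling protein that defines brown fat, was measured at 0.41 ± 0.05 (named after its value was seen), and Prdm16 at −0.19 ± 0.06. The summed signal of the 10 white adipocyte genes, mostly that of Fabp4 and Cfd, was 42596 to 44113 units in the arch pool against 32908 to 33750 units in the thoracic pool. All 8 mesothelium markers were above 0 on each array and none was called (4 with the scanner software's ratios). Their median was 0.39 (Upk3b 0.65 ± 0.12, Upk1b 0.22 ± 0.04). It was 0.60 with an offset of 0 and 0.72 with the scanner software's ratios, where the 10 genes had 0.41 under both. With median centring it was 0.30, against 0.24 for the 10 genes. Mesothelium signals summed to 2097 to 2225 units in the arch pool against 1577 to 1615 units in the thoracic pool. Of 7 measured cardiomyocyte markers 2 were called, Myl7 (2.33 ± 0.01) and Tnnt2 (1.59 ± 0.03), and Myh6 was below background. Their summed signals were 14609 to 14752 units in the arch pool and 13440 to 15282 units in the thoracic pool, of which the single gene Actc1 (−0.05 ± 0.11) made 12803 to 13035 units in the arch pool and 12551 to 14336 units in the thoracic pool. The part of these cells in the ratios of the 10 genes was not tested.

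Smooth muscle is the labelled cell type. Of its 8 markers none was called, 3 were below 0 on each array and none above, and the median was −0.05 (−0.21 with median centring), with Smtn at 0.06 ± 0.13 and Des at −0.22 ± 0.01. The summed signal, mostly that of Acta2 and Tagln, was 150180 to 159255 units in the arch pool against 154315 to 157760 units in the thoracic pool. Of 8 endothelial markers 7 were measured and Tie1 was not well above background, none of the 7 was called and the median was 0.06. Endothelial signals summed to 751 to 780 units in the arch pool against 689 to 727 units in the thoracic pool. The offset carried by each gene is a large part of these sums. Vwf was at 0.26 ± 0.02 (0.12 by its dimmer probe) and Tek at −0.04 ± 0.04 (0.18 by its dimmer probe, the other direction). Over the whole arrays 71.3% to 81.5% of gene spots per dye were well above background. Median raw signals, which still hold local backgrounds of 40 to 48 units, were 87.1 to 97.1 units. Above the local background the median of gene spots was 39.2 to 55.9 units.

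**Figure D5:**
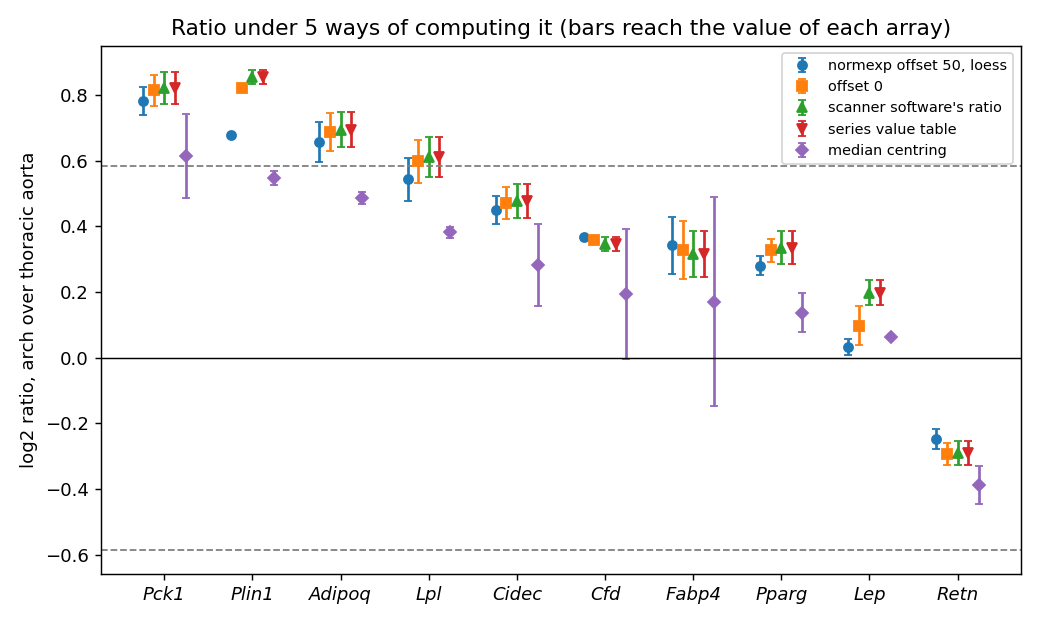
Log2 ratio of arch over thoracic aorta (vertical axis) of the 10 genes computed in 5 ways, as the mean of both arrays, with bars that reach the value of each array and dashed lines at 1.5-fold. Median centring gives the lowest value for every gene but Lep and the widest bars for Fabp4 and Cfd, and no mean changes sign.

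The size of the ratios depended on how the dyes were balanced. With median centring in place of loess, an intensity-dependent fit, 0 of the 10 genes met the rule (0.131% of all genes were then called higher and 0.351% lower), and Adipoq measured 0.49 ± 0.02, Plin1 0.55 ± 0.02 and Pck1 0.61 ± 0.13. That setting lowered the median of the 1723 brightest genes (normalised brightness of at least 10 on the log2 scale) to −0.17 and that of all genes to −0.04. Fabp4 and Cfd, which are among these bright genes, then disagreed between arrays: Fabp4 was 0.49 on array 1 and −0.15 on array 2, and Cfd was 0.39 on array 1 and −0.0035 on array 2. Among the listed genes, Cidea, Dgat2, Pdk4, Dio2 and Cox8b lost their call under median centring, while Cox7a1, Myl7 and Tnnt2 kept theirs. Removing the offset of 50 moved the ratios of both Plin1 (0.82 ± 0.00) and Retn (−0.29 ± 0.03) away from 0, and the scanner software's own ratios gave Plin1 0.86 ± 0.02 and Lep 0.20 ± 0.04. With the scanner software's ratios the same 3 genes were called, beside 0.711% of all genes called higher and 0.599% lower.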

How the data were processed

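RNA of 2 pools was compared on 2 dye-swapped arrays and, per the submitters' processing notes, quantified in Feature Extraction 9.1.1.1 (Agilent). Per the file headers, the deposited files hold, for each dye, every spot's mean intensity and that of its surroundings, signals that the software had background-subtracted and dye-normalised, and their log10 ratio (Cy5 over Cy3) with its error. The series' value table deposited by the authors does not state its scale or direction. On both arrays 99.9% of its 41174 values equalled that log10 ratio with arch on top (tolerance 1e-06), with medians of 0. Directions were taken from the labelled dyes. The genome build of the array annotation is not given in the sources used here.

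From the intensities, background was corrected with normexp (offset 50) and ratios were normalised by loess within arrays (limma 3.58.1, R 4.3.3), control spots having weight 0. Control spots and flagged outliers (20 and 4 gene spots) were dropped, spots of a probe averaged, and 30520 of 41150 probes kept that were well above background for 1 or both regions on the 2 arrays. A gene took its brightest kept probe, and no gene was below background in 1 region only among those named with values. Per-dye signals are after loess and Aquantile normalisation. Symbols came from a RefSeq table (GRCm38.p6). The arrays count as 1 replicate, so there is no test. A gene was called at 1.5-fold on each array in the same direction, and the steps with loess were tested on simulated data. The simulated dyes had no intensity-dependent difference, so that test cannot weigh loess against median centring.

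The 10 genes, 9 pathway lists and 6 cell type lists were chosen with earlier results of these data known. Named genes are the 10, and in each list the called genes and the highest and lowest 2 (cell types: 1) well above background in both regions. Ucp1 and the perilipins other than Plin3 were named after their values were seen. So were Lyz2, Pi16, Acta2 and Tagln, for their share of a summed signal. Listed Wisp2 and Emr1 were not found by symbol and are not used here, and Itln1, Cideb, Tie1 and Myh6 were not well above background. Alternatives changed the offset, ratio source, centring, probe rule, filter, fold and array.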

Additional observations from a re-analysis of the deposited data

How the results depend on the processing

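No paired analysis was possible because the 2 arrays are a technical dye swap of 1 pool per region. Under the 9 alternatives that give a ratio, Retn stayed below 0 (−0.39 to −0.22) and the other 9 genes above 0, with Lep lowest at 0.01. The count of 3 genes called higher became 0 with median centring, 5 at 1.3-fold and 0 at 2-fold, and array 2 alone added Lpl. The median of the 10 genes was 0.24 with median centring and 0.45 on array 1 alone. Over all genes, 55 higher and 49 lower became 117 and 104 with an offset of 0, 152 and 128 with the scanner software's ratios and also with the value table, 28 and 75 with median centring, 134 and 112 at 1.3-fold, and 9 and 15 at 2-fold. Calls higher in the arch were 52.9% of all calls, and 27.2% with median centring. Of 540 single-gene values under alternatives 421 moved by less than the SD of the arrays and 21 had the other sign, none of them of the 10 genes or of a called gene. They belong to 12 genes with ratios within 0.10 of 0, among them Cd34 (−0.13 with median centring) and Tek (0.07 as the mean over its probes). The count of 421 is not a measure of robustness. A value from 1 array alone always lies within that SD of the mean, and the changes of filter left the named genes' values as they were. The value table also repeats the scanner software's ratios. Why median centring changed the calls was not tested beyond the shift of bright genes given above. Signal over background limits Lep, and the number of arrays and pools limits all precision.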

Other observations

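Fat cell precursor markers, read on the same arrays, had a median log2 ratio of 0.13 over 8 measured genes, with none called at 1.5-fold. Pdgfra, a growth factor receptor of precursors and fibroblasts, measured 0.55 ± 0.15 at its brightest probe but 0.01 at another. Dpp4 measured 0.28 ± 0.01, Cd34 0.04 ± 0.06 and Ly6a −0.04 ± 0.22. Their summed signals were 16177 to 17791 units in the arch pool and 16045 to 16378 units in the thoracic pool. Most of each sum came from Cd34 and Pi16. Cd34 gave 7085 to 7579 units in the arch pool and 7059 to 7214 units in the thoracic pool. Pi16 gave 5916 to 6513 units in the arch pool and 5687 to 6214 units in the thoracic pool.

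Klf5, a transcription factor that acts early in fat cell differentiation in mice, was the lowest of the 14 differentiation factors, at −0.44 ± 0.03 with an offset of 50. The value was −0.99 with an offset of 0 and −1.22 ± 0.15 by the scanner software's ratios, so the size of this ratio depended on the background step. Its signals were 76.0 and 80.6 units in the arch pool against 105 and 106 units in the thoracic pool.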
